A study of Mus musculus with 8 samples.

Results

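The 44 genes described here drive or carry out the cell cycle: 9 act at the passage from G1 into S phase, 11 in DNA replication or the supply of its nucleotides, and 24 in mitosis or as marks of cells in G2 and M. They were chosen by name, and each was read from the array probe that the platform's probe-to-gene table assigns to it, taking the probe with the highest mean over all arrays where a gene had several. A probe was found for 41 of the 44, out of 19321 genes with a probe in all. No probe carries the names Ccne2, Ccnb1 or Foxm1 in that table, so cyclin E2, cyclin B1 and the transcription factor FoxM1 were not analysed here. All 41 passed the filter on dim genes, 39 of them with a value on every array.

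RNA of mouse liver was hybridised to 8 single-colour oligonucleotide arrays. Every mouse had been given DMBA, a polycyclic hydrocarbon carcinogen, at 4 to 5 days of age, so the normal diet livers carry that treatment too. The animals ate a normal diet (2 livers, mice 117 and 120) or a high fat diet (3 livers, mice 117, 186 and 1) for 30 weeks. From each high fat liver both a tumour and non-tumour tissue were arrayed. The normal diet mouse 117 and the high fat mouse 117 are different animals, and strain, sex and the number of tumours per liver are not given in the sources used here. The study's title calls the tumours hepatocellular carcinoma. The summed level of 11 hepatocyte markers ran from 200400 to 265100 over the 8 arrays, with 206900 to 231200 in the tumours. Of the 11, 3 were higher and 3 lower in tumours than in non-tumour tissue, beside 12.0% and 13.4% of all genes tested.

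Levels are the deposited normalized intensities, a scale that sets each array's listed probes to a median of 25. Between 81.8% and 88.5% of probes were listed per array. A probe near the blank level has no deposited value and is called not listed. Values of a gene are given for normal diet mice 117 and 120, then for non-tumour tissue of mice 117, 186 and 1, then for their tumours in the same order of mice. Differences are log2 fold changes ± SE from limma, fitted to all 8 arrays and adjusted over 16800 genes, and a gene is said to have risen or fallen only at an adjusted p below 0.05. An offset added to every signal before the log2 step shrinks the fold change of dim genes, so the ratio of the mean intensities is often larger than the fold change. The 3 comparisons share arrays and are therefore not independent of each other. The words between the diets stand for non-tumour tissue of high fat livers against normal diet liver. In tissue RNA, fewer cells of a type and less RNA per cell cannot be told apart.

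Cells enter the cycle when D-type cyclins with Cdk4 or Cdk6, and then cyclin E with Cdk2, inactivate the retinoblastoma family of pocket proteins and release E2F factors, which switch on replication genes. The MCM helicase is loaded on origins in G1 and unwinds DNA in S phase, and genes of G2 and M, repressed in resting cells by the DREAM complex, are switched on later through promoter elements called CCAAT boxes and cell cycle genes homology regions (CHR). Hepatocytes of the adult liver are mostly out of the cycle and can re-enter it after injury or loss of tissue.

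Promoter sequences are shown because genes of replication and of mitosis are known to be switched on through different elements. RefSeq promoter windows of GRCm38.p6, from 250 bases before to 50 bases after each start, were held for 33 of the 44 genes in 35 windows. They were searched on both strands for the CCAAT box (CCAAT), the CHR (TTTGAA or TTCGAA) and an E2F site (TTTCCCGC or TTTGGCGC), and matches of different motifs overlapped in 0 cases. The last 150 bases before the start are shown, 5′ to 3′ on the gene's strand with matches on either strand in capitals, for 4 mitosis genes that were higher in tumours than in normal diet liver and for Ube2c, a mitosis gene that was not.
Cdk1: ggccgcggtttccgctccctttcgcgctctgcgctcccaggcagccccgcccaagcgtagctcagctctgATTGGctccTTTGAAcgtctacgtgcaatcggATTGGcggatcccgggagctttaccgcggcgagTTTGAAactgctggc
Cdc20: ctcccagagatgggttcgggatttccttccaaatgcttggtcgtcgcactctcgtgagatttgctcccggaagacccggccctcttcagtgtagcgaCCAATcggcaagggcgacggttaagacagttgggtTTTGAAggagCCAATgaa
Mki67: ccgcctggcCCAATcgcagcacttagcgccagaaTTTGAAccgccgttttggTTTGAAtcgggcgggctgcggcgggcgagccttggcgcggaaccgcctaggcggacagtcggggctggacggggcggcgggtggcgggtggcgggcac
Top2a: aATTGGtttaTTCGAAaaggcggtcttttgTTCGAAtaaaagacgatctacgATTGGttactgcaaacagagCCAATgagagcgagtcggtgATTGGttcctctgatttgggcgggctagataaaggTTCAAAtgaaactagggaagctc
Ube2c: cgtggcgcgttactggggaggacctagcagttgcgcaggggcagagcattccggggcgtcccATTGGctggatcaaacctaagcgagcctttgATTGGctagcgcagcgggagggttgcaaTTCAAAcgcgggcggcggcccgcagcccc

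In this stretch Cdk1, at chr10:69352913-69353062 on the minus strand, holds 2 CCAAT boxes and 2 CHRs. Cdc20 (chr4:118437344-118437493, minus strand) holds 2 CCAAT boxes and 1 CHR close to the start. Mki67 (chr7:135716380-135716529, minus strand) holds 1 and 2, Top2a (chr11:99024190-99024339, minus strand) 4 and 3, and Ube2c (chr2:164769779-164769928, plus strand) 2 and 1. In the whole windows, a CCAAT box and a CHR were found together in 14 of 17 mitosis windows (82.4%), in 2 of 11 replication windows (18.2%), in 0 of 7 G1/S windows and in 7.52% of all 32851 windows. Of the 14 mitosis windows with both, 8 belong to genes that rose in tumours against normal diet liver. So do 2 of the 3 without both, the third being that of Ccnb1, which has no probe. Over all genes tested, 12.9% rose in that comparison. The 8 include Bub1, which passed the filter on dim genes only through the tumours, where it was high. A match is a description of the letters and not a tested site.

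For the replication genes the same stretch is shown for 2 MCM genes and for Tk1 and Pcna, whose called differences were falls.
Mcm5: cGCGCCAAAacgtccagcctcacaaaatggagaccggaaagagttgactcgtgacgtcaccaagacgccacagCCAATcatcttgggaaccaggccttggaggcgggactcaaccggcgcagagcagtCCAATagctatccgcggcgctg
Mcm6: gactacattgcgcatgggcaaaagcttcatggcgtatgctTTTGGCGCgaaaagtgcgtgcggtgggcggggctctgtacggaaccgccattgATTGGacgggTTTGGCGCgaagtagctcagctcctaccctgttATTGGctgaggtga
Tk1: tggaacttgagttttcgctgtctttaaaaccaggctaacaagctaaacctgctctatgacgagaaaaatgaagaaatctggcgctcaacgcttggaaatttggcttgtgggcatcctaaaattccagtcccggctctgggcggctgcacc
Pcna: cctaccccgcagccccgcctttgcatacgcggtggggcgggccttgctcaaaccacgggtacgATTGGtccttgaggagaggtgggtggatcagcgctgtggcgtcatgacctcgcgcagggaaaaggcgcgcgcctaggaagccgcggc

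Mcm5 (chr8:75109359-75109508, plus strand) holds 2 CCAAT boxes and 1 E2F site, and Mcm6 (chr1:128359706-128359855, minus strand) holds 2 of each. Pcna (chr2:132253181-132253330, minus strand) holds 1 CCAAT box, and none of the searched letters occur in the stretch of Tk1 (chr11:117826015-117826164, minus strand). Over whole windows the E2F site was found in 4 of 11 replication windows (36.4%), in 1 of 7 G1/S windows (14.3%), in 0 of 17 mitosis windows and in 1.56% of all windows. A CCAAT box was found in 9 of 11 replication windows (81.8%), in 15 of 17 mitosis windows (88.2%), in 2 of 7 G1/S windows (28.6%) and in 37.4% of all windows. A CHR, with or without a CCAAT box, was found in 19.2% of all windows.

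Tumours were compared with the non-tumour tissue of the same livers to see which of these genes differ with the tumour on an equal diet. Of the 41 members, 9 rose in tumours, namely Ccnd1, Ccne1 and Cdk4 among the G1/S genes and Ccna2, Ccnb2, Cdkn3, Birc5, Mki67 and Cenpf among the mitosis genes, and 1, Pcna, fell. Over all 16800 genes tested, 12.0% rose, 13.4% fell and 25.4% changed in either direction, so the members' total of 10 of 41 stood near that background while their direction was mostly upward. The median log2 fold change was 0.13 over the G1/S genes, -0.01 over the replication genes and 0.22 over the mitosis genes, beside -0.01 over all genes. When mouse number, which pairs the 2 tissues of a liver, entered the fit as a block, 8 members were called. Ccnb2, Birc5 and Pcna were lost and Cdk6 joined as lower. Calls over all 16800 genes dropped too, from 2008 higher and 2259 lower to 1642 and 1843 with the block. The calls also rest on how background was set: with the scanner's local background in place of blank spots, limma called 0 members in this comparison and in each of the other 2. At an unadjusted p below 0.05 that setting held 7 higher and 1 lower member here (6.14% and 4.39% of all genes), 1 and 1 for non-tumour tissue against normal diet (2.05% and 2.76%), and 9 and 1 for tumours against normal diet (6.73% and 5.83%).

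**Figure D1:**
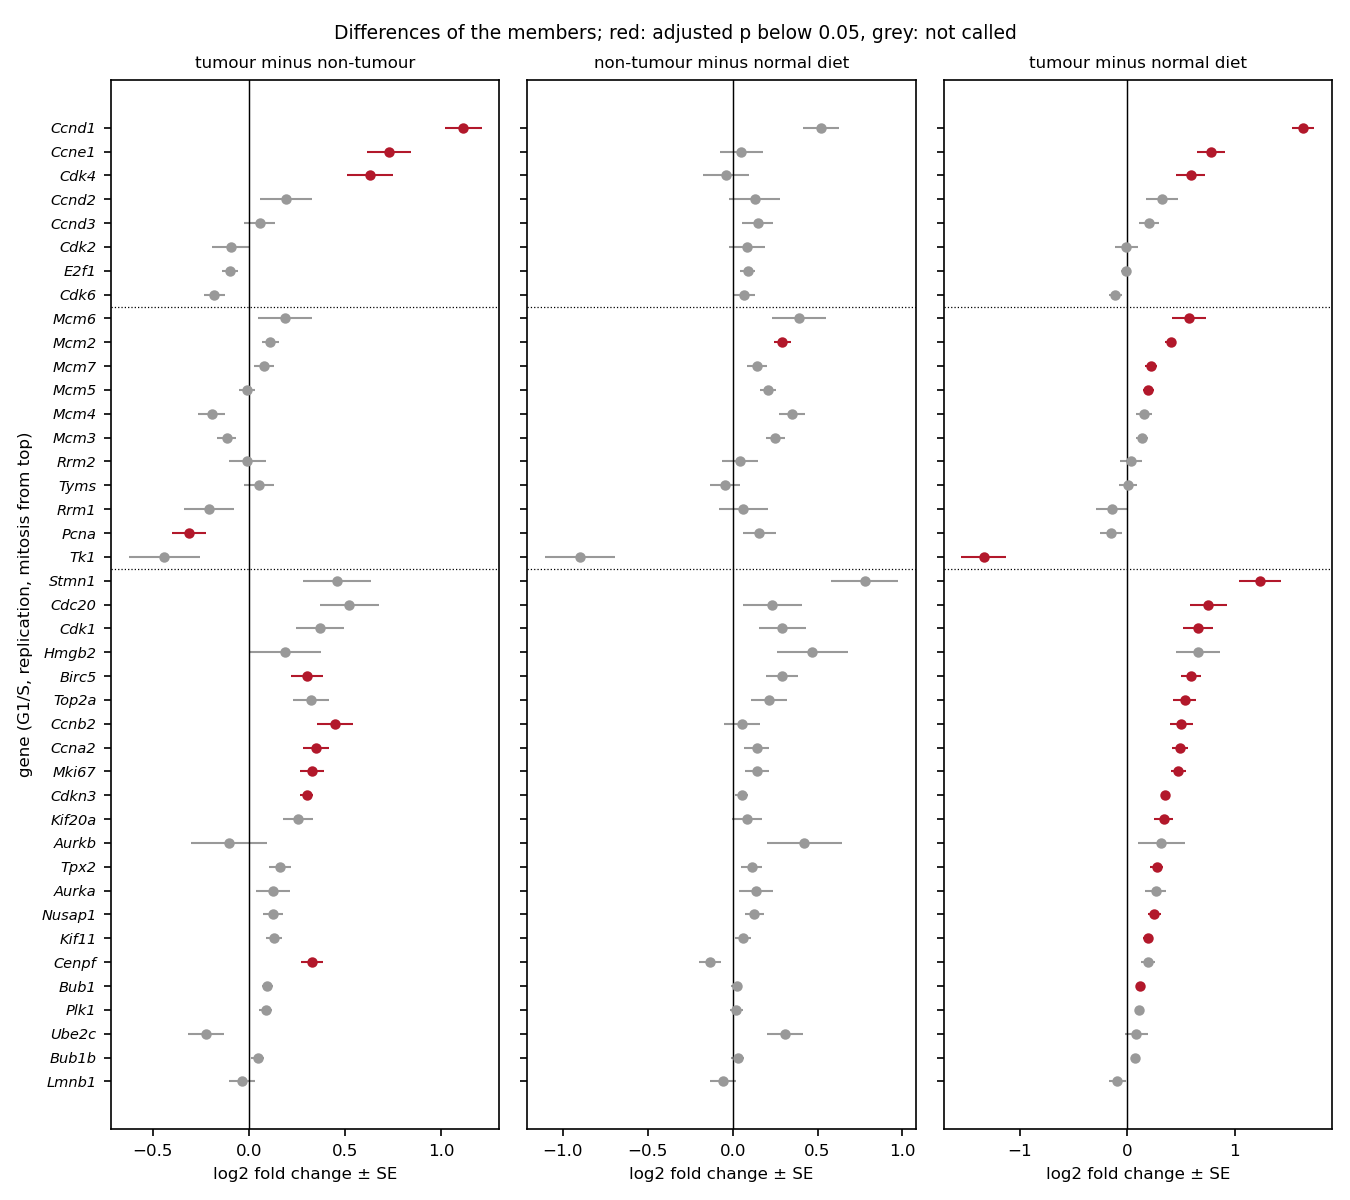
Log2 fold change ± SE of each of the 41 members (rows, grouped by role from top to bottom) in the 3 comparisons (panels with separate horizontal scales), in red where the adjusted p was below 0.05 and in grey otherwise. Ccnd1 lies farthest to the right of the G1/S genes in each panel, the mitosis genes lie mostly to the right of 0, and Tk1 lies farthest to the left of all members.

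Among the G1/S genes Ccnd1 differed most between tumours and normal diet liver, with offsets of 50 and 10 and with the authors' values. Between tumour and non-tumour tissue it differed most with the offset of 50. There Ccne1 was larger with the offset of 10 (1.515 against 1.468) and with the authors' values (2.172 against 1.482). Ccnd1 encodes cyclin D1, the partner of Cdk4 and Cdk6 that links growth signals to the cycle. Its intensity was 32.0 and 28.7 on normal diet, 61.2, 56.0 and 68.7 in non-tumour tissue and 145.9, 207.0 and 169.9 in tumours. The 3 groups did not overlap and stood in that order, with means of 30.4 ± 2.33 (SD, n = 2), 62.0 ± 6.38 (n = 3) and 174.3 ± 30.8 (n = 3). Ccnd1 rose by 1.12 ± 0.09 between non-tumour tissue and tumour (adjusted p 0.000756), a 2.81-fold ratio of mean intensities. The difference between non-tumour tissue and normal diet liver was 0.52 ± 0.11 and just missed the threshold (adjusted p 0.0519), and tumours exceeded normal diet liver by 1.64 ± 0.11 (adjusted p 0.000295, ratio 5.74).

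Ccne1, which encodes the cyclin E1 that activates Cdk2 at the entry into S phase, rose in tumours against both other groups. It read 6.0 and 12.6 on normal diet, 15.9, 9.3 and 7.5 in non-tumour tissue and 45.6, 37.4 and 59.5 in tumours. Every tumour stood above every other array, and the first 2 groups overlapped. The rise over non-tumour tissue was 0.73 ± 0.11 (adjusted p 0.00545, ratio 4.36) and that over normal diet liver 0.78 ± 0.13 (adjusted p 0.00601), while non-tumour tissue minus normal diet gave 0.05 ± 0.13 (adjusted p 0.883). Without normal diet mouse 117 the call against normal diet was lost.

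Cdk4, the kinase that cyclin D1 activates, read 173.5 and 177.0 on normal diet, 156.9, 178.6 and 124.1 in non-tumour tissue and 206.5, 253.3 and 241.7 in tumours. The tumours again lay above all other arrays, by a smaller ratio of 1.53 over non-tumour tissue (0.63 ± 0.12, adjusted p 0.0113). Against normal diet liver the rise was 0.59 ± 0.13 (adjusted p 0.0200), a call that was lost without either normal diet array and with the authors' values. Cdk6, the related kinase, gave a difference of -0.18 ± 0.05 between tumour and non-tumour tissue (adjusted p 0.0569). Its intensities of 59.7, 71.9 and 61.0 in tumours lay below the 78.5, 86.8 and 77.9 of non-tumour tissue without overlap.

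The other 4 measured G1/S genes passed no test in any comparison. E2f1, the transcription factor released from the pocket proteins, read 16.4 and 14 on normal diet, 16, 19.0 and 19.8 in non-tumour tissue and 9.9, 17.0 and 16.9 in tumours. Its tumour minus non-tumour difference of -0.10 ± 0.04 (adjusted p 0.143) had a 95% interval of -0.20 to 0.00, and its value against normal diet was -0.01 ± 0.05 (adjusted p 0.909). Ccnd2, Ccnd3 and Cdk2, the other D-type cyclins and the partner of cyclin E, lay between -0.09 and 0.19 in tumour minus non-tumour tissue. Of the 3 D-type cyclin genes Ccnd1 was the 1 called, and the differences between these genes were not tested.

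**Figure D2:**
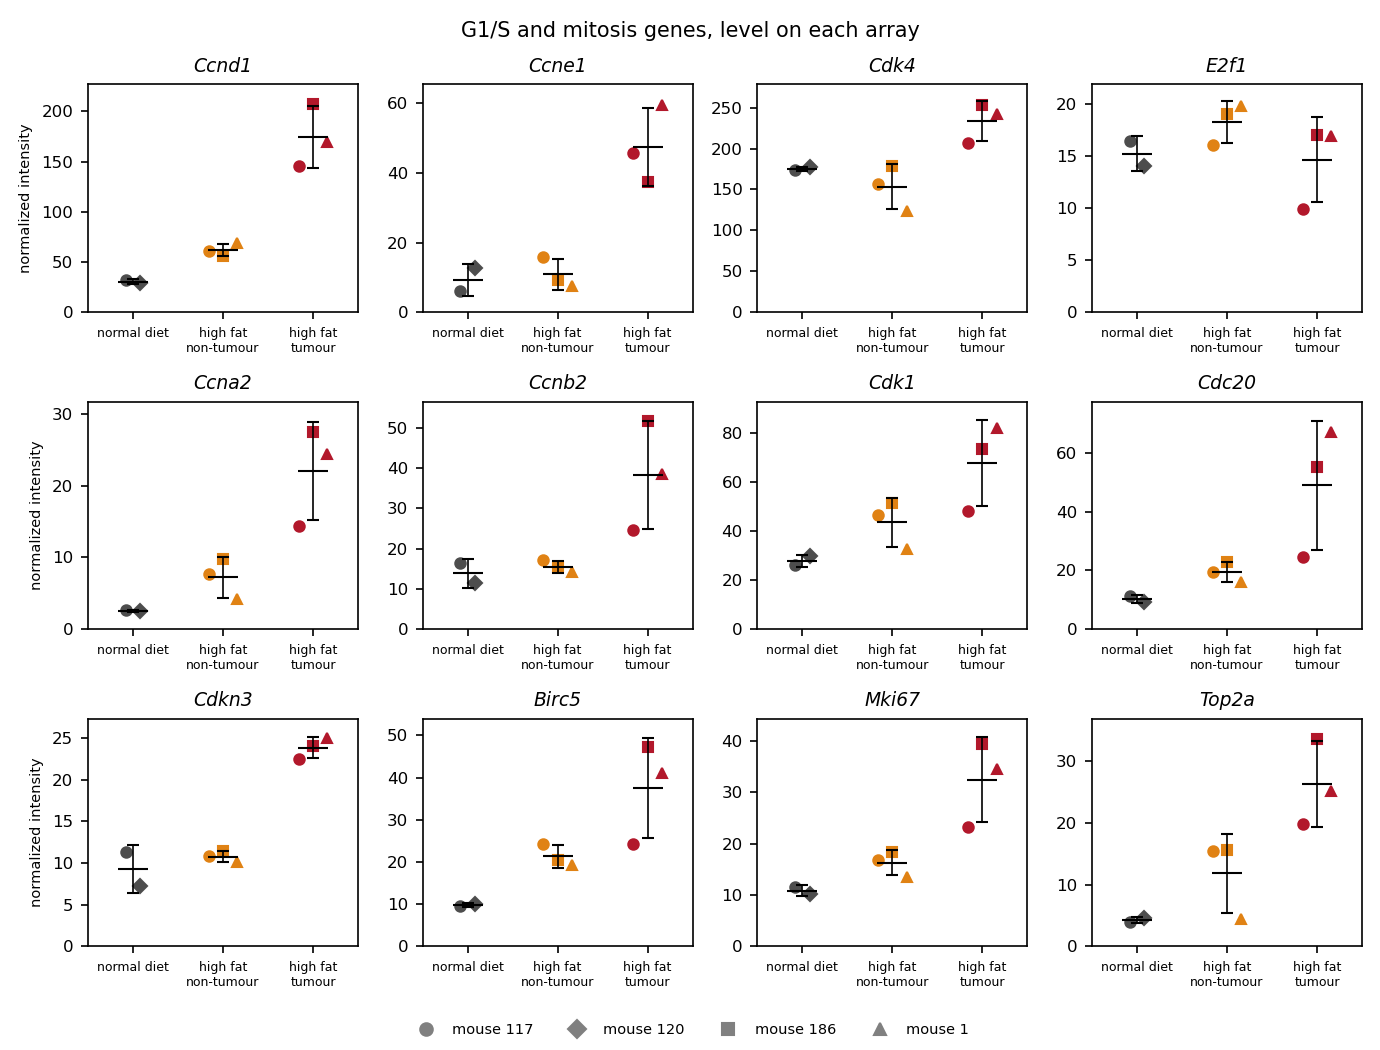
Normalized intensity (vertical axis, from 0, with its own scale in each panel) of 4 G1/S and 8 mitosis genes on each array, by group, with the mean and SD of each group as bars and the mouse shown by the symbol. In Ccnd1, Ccne1, Cdk4, Ccna2, Ccnb2, Cdc20, Cdkn3, Mki67 and Top2a all 3 tumours lie above all non-tumour tissues, and tumour 117 (circle) is the lowest tumour in most mitosis genes.

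Mki67, the nuclear protein used to mark cycling cells, read 11.6 and 10.1 on normal diet, 16.9, 18.3 and 13.6 in non-tumour tissue and 23.3, 39.5 and 34.5 in tumours. The groups did not overlap and stood in the order normal diet, non-tumour, tumour, with means of 10.9 ± 1.06, 16.3 ± 2.41 and 32.4 ± 8.30. The rise in tumours was 0.33 ± 0.06 over non-tumour tissue (adjusted p 0.0116, ratio 1.99) and 0.47 ± 0.07 over normal diet liver (adjusted p 0.00431, ratio 2.99). Between the diets the difference of 0.15 ± 0.07 did not pass (adjusted p 0.318).

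Cyclins that act later in the cycle also rose in tumours. Ccna2, cyclin A2, which serves both S phase and the entry into mitosis, read 2.7 and 2.5 on normal diet, 7.7, 9.8 and 4.2 in non-tumour tissue and 14.4, 27.4 and 24.4 in tumours. It rose by 0.35 ± 0.07 over non-tumour tissue (adjusted p 0.0112), where the ratio of mean intensities was 3.05, and by 0.49 ± 0.07 over normal diet liver (adjusted p 0.00459), where the ratio was 8.49. These 3 groups were again separate. Ccnb2, cyclin B2, a partner of Cdk1, read 16.4 and 11.4 on normal diet, 17.1, 15.4 and 14.1 in non-tumour tissue and 24.7, 51.6 and 38.5 in tumours. Its rise of 0.45 ± 0.09 over non-tumour tissue (adjusted p 0.0158) was lost without the non-tumour array of mouse 1 and with the mouse as a block (adjusted p 0.0559), and its 0.50 ± 0.11 over normal diet (adjusted p 0.0149) was lost without either normal diet array.

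Cdkn3, a phosphatase that acts on Cdk1 and Cdk2, read 11.3 and 7.2 on normal diet, 10.8, 11.4 and 10.1 in non-tumour tissue and 22.5, 24.0 and 25 in tumours. Its 3 tumours lay close together, above all other arrays. The rise was 0.30 ± 0.03 over non-tumour tissue (adjusted p 0.00187) and 0.35 ± 0.04 over normal diet (adjusted p 0.00148). Cenpf, a kinetochore protein of G2 and M, was the mitosis gene whose non-tumour values were the lowest: it read 39.4 and 44.0 on normal diet, 32.5, 26.8 and 37.1 in non-tumour tissue and 41.6, 55.8 and 55.9 in tumours. It rose by 0.33 ± 0.06 over non-tumour tissue (adjusted p 0.00873), and its 0.19 ± 0.07 over normal diet liver did not pass (adjusted p 0.0697).

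Birc5 encodes survivin, a subunit of the chromosomal passenger complex. It read 9.5 and 10.1 on normal diet, 24.3, 20.4 and 19.2 in non-tumour tissue and 24.3, 47.2 and 41.2 in tumours, so tumour 117 stood at the level of its own non-tumour tissue. The rise over normal diet liver was 0.59 ± 0.09 (adjusted p 0.00557, ratio 3.83). That over non-tumour tissue, 0.30 ± 0.08 (adjusted p 0.0430), was lost with the block (adjusted p 0.13), with the 2 compared groups alone, with no filter on dim genes, and without any one array other than tumour 117.

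Against normal diet liver the tumours were compared to see both differences at once. Of the 41 members 21 rose and 1, Tk1, fell, beside 12.9% of all genes tested that rose, 15.0% that fell and 27.8% that changed. The 21, like later counts of tumours above the other groups, include Bub1. That gene passed the filter on dim genes only through the tumours, where it was high. By role, 3 of 8 G1/S genes, 4 of 11 replication genes and 14 of 22 mitosis genes rose, and the median log2 fold change was 0.26, 0.14 and 0.33 against -0.01 over all genes. The count of 22 was smaller when either normal diet array was left out, as was the number called over all genes. Each of these fits leaves 1 array in the normal diet group, whose spread is then taken from the other groups.

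In 9 mitosis genes a rise passed in this comparison and in neither of the others. Cdk1, the kinase that drives mitosis, read 26.1 and 29.7 on normal diet, 46.4, 51.6 and 32.6 in non-tumour tissue and 48.1, 73.4 and 81.9 in tumours (tumour minus normal diet 0.66 ± 0.14, adjusted p 0.0153). All high fat arrays lay above both normal diet arrays, tumour 117 fell within the non-tumour range, and the difference of tumour and non-tumour tissue, 0.37 ± 0.12, did not pass (adjusted p 0.0771). Top2a, the topoisomerase that untangles sister chromatids, read 3.9 and 4.6 on normal diet, 15.4, 15.7 and 4.5 in non-tumour tissue and 19.9, 33.7 and 25.2 in tumours (0.54 ± 0.11, adjusted p 0.0125, ratio 6.18). In the non-tumour tissue of mouse 1 its level lay between the 2 normal diet values, and the rise of tumour over non-tumour tissue, 0.32 ± 0.10, just missed the threshold (adjusted p 0.0508).

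Cdc20, an activator of the anaphase-promoting complex, gave a difference between tumour and non-tumour tissue of 0.52 ± 0.15, which did not pass (adjusted p 0.0505). It read 11.3 and 9.3 on normal diet, 19.5, 23.0 and 16 in non-tumour tissue and 24.7, 55.0 and 66.9 in tumours, with a rise of 0.76 ± 0.17 over normal diet liver (adjusted p 0.0200). Tumour 117 was close to the non-tumour tissue and the other two tumours were far above it. Stmn1, the microtubule destabiliser stathmin, rose by 1.24 ± 0.20 over normal diet liver (adjusted p 0.00536). It read 108.1 and 85.2 on normal diet, 172.8, 203.3 and 180.2 in non-tumour tissue and 172.7, 308.7 and 263.8 in tumours, so that here tumour 117 did not exceed the non-tumour range.

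Genes of the spindle followed. Tpx2, which activates Aurora A on the spindle, read 1.8 and 2.7 on normal diet, 6.1, 7.2 and 4.2 in non-tumour tissue and 6.6, 14.6 and 15.5 in tumours (0.27 ± 0.06, adjusted p 0.0198). Nusap1, a microtubule-binding protein, read 4.7 and 6.6, then 12.4, 10.1 and 7.8, then 11.0, 17.3 and 18.0 (0.25 ± 0.06, adjusted p 0.0181). Kif20a, a kinesin of cytokinesis, read 7.6 and 7.7, then 8.4, 14 and 9.3, then 13.1, 24.9 and 27.8 (0.34 ± 0.09, adjusted p 0.0305). In all 3 the normal diet arrays were the lowest of the 8. Kif11, the kinesin that separates the spindle poles, was 3.5 in normal diet mouse 117 and not listed in mouse 120, 4.9, 4.0 and 2.8 in non-tumour tissue and 6.1, 13.1 and 7.6 in tumours (0.19 ± 0.05, adjusted p 0.0242). Bub1, a spindle checkpoint kinase, was not listed on normal diet and listed in non-tumour tissue of mouse 186 alone at 2.4. Its tumours read 2.8, 7.2 and 4.8, at least 1.07-fold higher than normal diet liver against the lowest listed signals (adjusted p 0.0339). Bub1 passed the filter on dim genes only through the tumours, where it was high, so that p value does not support a rise.

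These calls rest on few arrays. Leaving out either normal diet array ended the calls of Cdk1, Cdc20, Top2a, Tpx2, Nusap1, Kif20a, Kif11 and Bub1 against normal diet liver. Cdc20, Kif20a and Bub1 were also lost without tumour 186, Kif20a and Bub1 without tumour 1, and Bub1 without non-tumour 117. Scaling arrays to the same median in place of quantile normalization ended the calls of Tpx2, Kif11 and Bub1, and turned the sign of Bub1. Fitting the compared groups alone ended those of Ccnb2, Cdc20, Tpx2, Kif20a, Kif11 and Bub1. Ccna2, Cdkn3, Birc5, Mki67 and Stmn1 were still called against normal diet liver with any one array left out.

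The other 7 mitosis genes were called in no comparison. Tumour minus normal diet differences ran from -0.09 for Lmnb1, a nuclear lamin, to 0.66 ± 0.21 for Hmgb2, a chromatin protein, whose adjusted p was 0.0578. Ube2c, the ubiquitin-conjugating enzyme of the anaphase-promoting complex whose promoter is shown above, was the lowest of the role between tumour and non-tumour tissue. It read 256.3 and 258.3 on normal diet, 293.6, 259.2 and 344.5 in non-tumour tissue and 193.2, 251.8 and 220.0 in tumours (-0.22 ± 0.10 between the tissues, adjusted p 0.146). In intensity its tumours lay below both normal diet arrays, while the difference in quantile-normalized log2 signal was 0.09 (adjusted p 0.599). The authors' values gave -0.22 and median scaling 0.19, so its direction there differed between settings. The checkpoint kinase Bub1b and the mitotic kinases Aurka, Aurkb and Plk1 gave tumour minus non-tumour differences between -0.10 and 0.13.

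**Figure D3:**
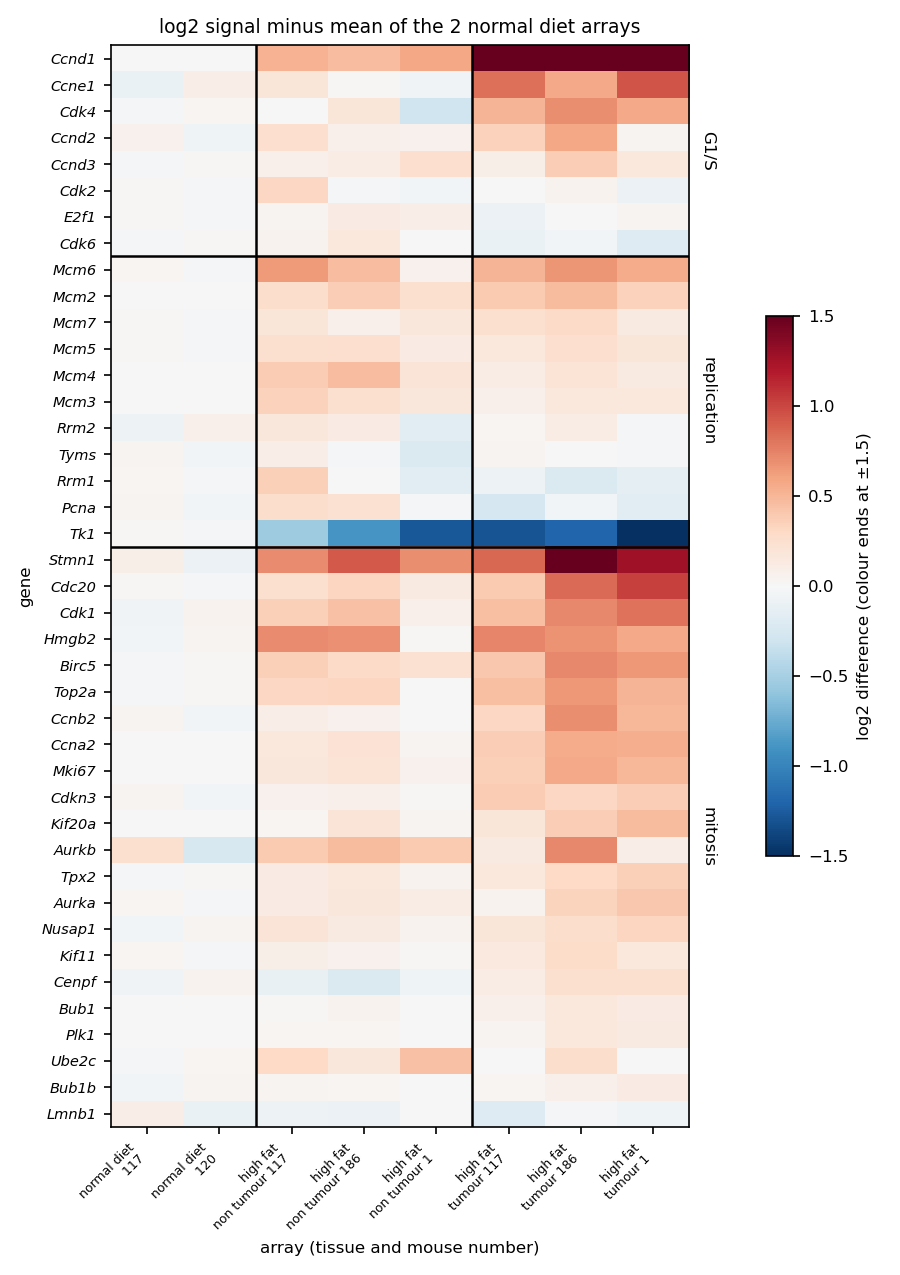
Log2 signal of each member (rows, grouped by role and ordered by the tumour minus normal diet difference) on each of the 8 arrays (columns), minus the mean of the 2 normal diet arrays. Colours end at ±1.5 log2 units, and values past that take the end colour. Most mitosis genes deepen from left to right across the 3 groups, the 6 Mcm genes are on the red side in both high fat diet tissues, and Tk1 is blue in all 6 high fat diet arrays.

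Non-tumour tissue of high fat livers was compared with normal diet liver to see the differences outside the tumour. All these high fat livers bore a tumour, so the diet and a tumour in the same liver cannot be told apart. In this comparison 1 member rose, Mcm2, and 0 fell, beside 1.81% of all genes tested that rose, 2.03% that fell and 3.84% that changed. At an unadjusted p below 0.05, 10 of the 41 members were higher and 1 lower by the same limma test, beside 9.21% of all genes that were higher and 10.8% that were lower. The median difference of 0.09, 0.16 and 0.13 over G1/S, replication and mitosis genes was above the -0.01 of all genes in each role.

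The subunits of the MCM2-7 helicase, of which only Mcm2 was called between the diets, all gave differences above 0 there. In log2 signal all 6 stood higher on every non-tumour array than on both normal diet arrays, with differences of 0.14 to 0.39 and ratios of mean intensity of 1.10 to 2.02. Over all genes 21.0% stood higher without overlap. With median scaling this held for all 6 (28.8% of all genes), and on the deposited intensities for 5, where Mcm7 overlapped (12.9%). Adjusted p values ran from 0.0359 for Mcm2 to 0.240 for Mcm6. Between tumour and non-tumour tissue the same 6 genes lay between -0.19 and 0.19 and 0 were called.

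Mcm2 read 17.1 and 15.8 on normal diet, 27.7, 32.8 and 28.5 in non-tumour tissue and 31.4, 42.0 and 33.5 in tumours. It rose over normal diet liver by 0.29 ± 0.05 in non-tumour tissue (adjusted p 0.0359, ratio 1.80) and by 0.40 ± 0.05 in tumours (adjusted p 0.00247). The difference of tumour and non-tumour tissue was 0.11 ± 0.05 (adjusted p 0.129). The call between the diets was lost without either normal diet array, without any one non-tumour array and without tumour 117. The call of tumours against normal diet held with any one array left out.

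Mcm6, another subunit, was uneven across the livers. It read 21.6 and 17.4 on normal diet, 54.1, 41.9 and 22.2 in non-tumour tissue and 41.4, 57.2 and 49.4 in tumours, so the non-tumour tissue of mouse 1 was near normal diet liver. In tumours Mcm6 rose by 0.58 ± 0.16 over normal diet (adjusted p 0.0378). Mcm5 read 8.6 and 6.9, then 16.4, 16.7 and 12.9, then 11.9, 19.4 and 14.9, a rise of 0.20 ± 0.05 in tumours over normal diet (adjusted p 0.0240). Mcm7 read 69.8 and 62.4, then 74.8, 64.7 and 77.7, then 71.8, 83.0 and 71.5, a rise of 0.22 ± 0.06 (adjusted p 0.0287).

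These last 3 calls were lost without either normal diet array and without tumour 186. Mcm6 and Mcm7 were also lost without tumour 117, Mcm6 without tumour 1 or non-tumour 186, Mcm5 with median scaling, and Mcm7 with the authors' values, plain blank subtraction or the compared groups alone. Mcm3 and Mcm4 were called in no comparison. Mcm4 read 37.8 and 34.9 on normal diet, 58.3, 63.8 and 48.0 in non-tumour tissue and 37.4, 49.6 and 43.8 in tumours, so 2 of the 3 non-tumour values lay above all other arrays (0.35 ± 0.08 over normal diet, adjusted p 0.0658).

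**Figure D4:**
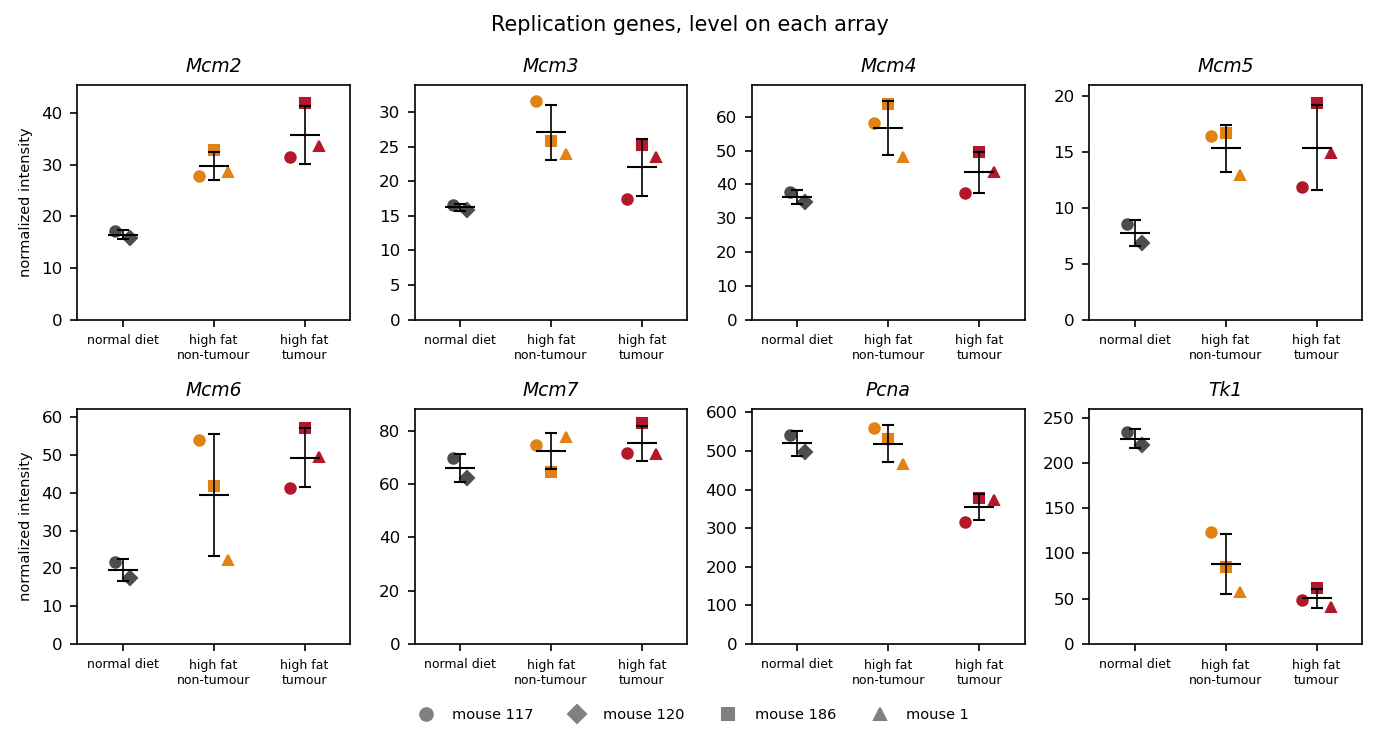
Normalized intensity (vertical axis, from 0, with its own scale in each panel) of 8 replication genes on each array, by group, with the mean and SD of each group as bars and the mouse shown by the symbol. Each of the Mcm genes other than Mcm7 is higher in all non-tumour tissues than on normal diet, Tk1 is highest on normal diet, and Pcna is lowest in tumours.

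Pcna, the sliding clamp of DNA polymerases and a common proliferation mark, fell in tumours. It read 542.7 and 496.9 on normal diet, 560.7, 531.5 and 465.6 in non-tumour tissue and 317.2, 377.1 and 372.7 in tumours. All tumours lay below all other arrays, and the difference from non-tumour tissue was -0.31 ± 0.09 (adjusted p 0.0462), a ratio of 0.685. This call was lost with the block (adjusted p 0.0955), with plain subtraction of the blank level, with no filter on dim genes, with the 2 compared groups alone, and without normal diet 117 or 120, non-tumour 117 or 186, or tumour 117 or 1. Tumour minus normal diet was -0.15 ± 0.10 (adjusted p 0.307).

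Tk1, the thymidine kinase of the salvage pathway that peaks in S phase in cycling cells, stood lower in every high fat array. It read 234.5 and 219.4 on normal diet, 123.6, 84.9 and 57.5 in non-tumour tissue and 48.4, 61.8 and 41.0 in tumours. It fell by 1.34 ± 0.21 on the log2 scale in tumours against normal diet liver (adjusted p 0.00492, ratio 0.222), a call that held with any one array left out. Non-tumour tissue minus normal diet was -0.90 ± 0.21 (adjusted p 0.0717) and tumour minus non-tumour tissue -0.44 ± 0.19 (adjusted p 0.139). Tyms, Rrm1 and Rrm2, which make thymidylate and deoxynucleotides, were called in no comparison and lay between -0.21 and 0.05 in tumour minus non-tumour tissue.

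Whether the arrays of 2 groups overlap was read on the log2 signal. Tumours lay wholly above non-tumour tissue in 16 of 41 members, against 19.1% of all genes, and wholly below in 3, against 22.3%. Of the 16, 13 were mitosis genes (of 22) and 3 were G1/S genes (of 8), with 0 of 11 replication genes. Non-tumour tissue lay above normal diet liver in 21 members, against 21.0% of all genes, and below in 2 (Tk1 and Cenpf), against 23.0%. The 21 comprised 12 mitosis, 6 replication and 3 G1/S genes. Tumours lay above normal diet liver in 28 members, against 25.5% of all genes, and below in 4 (Cdk6, Pcna, Rrm1 and Tk1), against 31.8%. On the deposited intensities, which are scaled by 1 factor per array, the members wholly above were 12, 18 and 24 in the same 3 comparisons, against 15.0%, 12.9% and 16.8% of all genes.

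All 3 groups in the order normal diet, non-tumour, tumour without overlap in log2 signal were seen in 7 members, Ccnd1, Ccna2, Cdk1, Cdc20, Birc5, Mki67 and Tpx2, and the opposite order in 0. Over all genes tested, 4.51% stood in the rising and 5.27% in the falling order. Of the 7, 6 are mitosis genes and 0 are replication genes. In deposited intensity Cdk1 and Tpx2 overlapped between the tissues, and Birc5 was tied in mouse 117.

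Within each liver the tumour was set against its own non-tumour tissue. In all 3 livers the tumour was higher in 19 of 41 members, against 27.2% of all genes, and lower in 6, against 31.9%. The 19 comprised 15 of 22 mitosis genes, 3 of 8 G1/S genes and Mcm2 of the 11 replication genes, and the 6 were Cdk6, E2f1, Mcm3, Mcm4, Pcna and Tk1. Mki67 differed by 0.19 in mouse 117, 0.36 in mouse 186 and 0.44 in mouse 1. For Cdc20 the 3 differences were 0.16, 0.52 and 0.89, and for Ccnd1 0.97, 1.40 and 0.98.

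**Figure D5:**
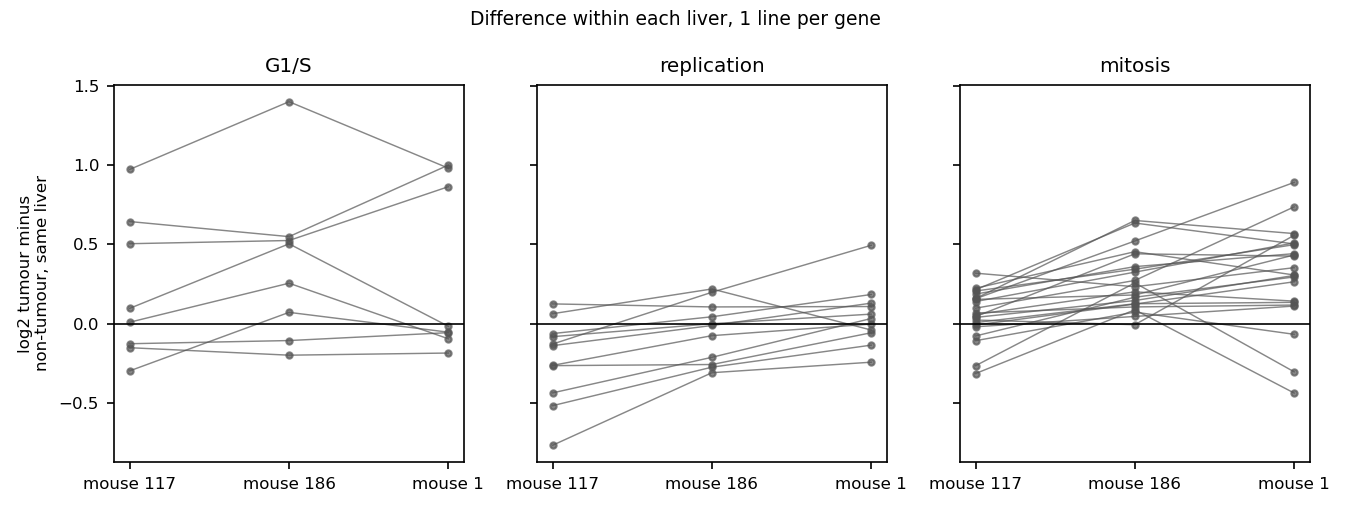
Log2 signal of the tumour minus that of non-tumour tissue of the same liver (vertical axis) in mice 117, 186 and 1, with 1 line for each gene in panels by role; the lines join values of a gene and imply no order of the mice. The highest mitosis gene reaches 0.32 in mouse 117, 0.65 in mouse 186 and 0.89 in mouse 1, and 9 of 11 replication genes lie below 0 in mouse 117.

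The livers were not alike. Tumour 117 was the lowest of the 3 tumours in 19 of 22 mitosis genes (86.4%), while over all genes tested it was the lowest in 30.8%. Tumour 186 was the highest tumour in 27 of 41 members (65.9%, all genes 32.1%). Among non-tumour tissues that of mouse 1 was the lowest in 32 of 41 members (78.0%, all genes 31.5%), including 10 of 11 replication and 17 of 22 mitosis genes. Without tumour 117, 17 members rose in tumours over non-tumour tissue in place of 9 and 0 fell. That setting called 1664 higher and 1711 lower of 17042 genes tested, beside 2008 and 2259 of 16800 with all arrays. Tumour 117 also had the smallest share of listed probes, 81.8%, whose part in this was not tested.

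Other genes of the same processes were taken from lists that hold none of the members. Of 54 tested further mitosis genes, 10 rose and 2 fell in tumours over non-tumour tissue, and 21 rose and 2 fell against normal diet liver. The rises were 18.5% and 38.9% of the list, beside 12.0% and 12.9% of all genes, and the falls 3.70% in both, beside 13.4% and 15.0%. Racgap1, among the rises in both, passed the filter on dim genes only through the tumours, where it was high. Cks1b, a small subunit of Cdk complexes, rose from 95.3, 79.0 and 69.0 to 191.7, 157.4 and 211.4 between the 2 tissues (0.98 ± 0.12, adjusted p 0.00246), and Cenpa, the histone of the centromere, from 68.4, 50.2 and 55.3 to 116.9, 162.9 and 141.4 (0.92 ± 0.11, adjusted p 0.00208). Hmmr, a hyaluronan-binding spindle protein, rose by 0.44 ± 0.10 (adjusted p 0.0237). Against that direction Spc24, a subunit of the kinetochore complex that binds microtubules, fell from 213.0, 179.1 and 196.3 to 47.5, 76.3 and 47.8 (-1.20 ± 0.10, adjusted p 0.000807).

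Of 47 tested further replication genes, 0 rose and 8 fell in tumours over non-tumour tissue, and 2 rose and 12 fell against normal diet liver. The falls were 17.0% and 25.5% of the list, beside 13.4% and 15.0% of all genes, so the first share was close to the background. Mcm10, a factor of origin firing, read 997.2 and 873.8 on normal diet, 453.6, 457.9 and 505.5 in non-tumour tissue and 147.5, 140.1 and 56.4 in tumours (-1.63 ± 0.27 between the tissues, adjusted p 0.00667). Dut, which removes dUTP, fell by 0.48 ± 0.05 (adjusted p 0.000883), Rpa1, the large subunit of the single-strand binding protein, by 0.48 ± 0.07 (adjusted p 0.00497), and Gmnn, the licensing inhibitor geminin, by 0.41 ± 0.08 (adjusted p 0.0126). Gins2, a subunit of the replicative helicase complex, and Lig1, which joins Okazaki fragments, rose in tumours over normal diet liver by 0.35 ± 0.07 (adjusted p 0.0116) and 0.18 ± 0.04 (adjusted p 0.0154). Between the diets Rpa3 and Orc5, a subunit of the origin recognition complex, fell by 0.35 ± 0.07 and 0.26 ± 0.05 (adjusted p 0.0429 and 0.0423).

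Of 16 tested E2F factors, pocket proteins and DREAM subunits, 1 rose and 2 fell in tumours over non-tumour tissue, or 6.25% and 12.5%, no more than the 12.0% and 13.4% of all genes. Rbl1, the pocket protein p107, rose by 0.17 ± 0.03 (adjusted p 0.0117), and Rbl2, the pocket protein p130, and the repressor E2f6 fell by 0.23 ± 0.06 and 0.34 ± 0.07 (adjusted p 0.0318 and 0.0150). Against normal diet liver 2 rose and 5 fell, or 12.5% and 31.2%, beside 12.9% and 15.0% of all genes. Among those that rose was Rb1 with 0.59 ± 0.17 (adjusted p 0.0447). Among those that fell were Lin52 with -0.52 ± 0.12 (adjusted p 0.0220) and Tfdp2, a dimer partner of E2F, with -0.42 ± 0.04 (adjusted p 0.00128). Tfdp2 was also the 1 gene of this list that fell between the diets (-0.34 ± 0.04, adjusted p 0.0151).

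Among 7 inhibitors of cyclin-dependent kinases, 3 rose and 1 fell in tumours over non-tumour tissue, and 2 rose against normal diet liver. The rises were 42.9% and 28.6% of this short list, beside 12.0% and 12.9% of all genes. The fall was 14.3%, close to the 13.4% of all genes. Cdkn2b, which encodes the Cdk4 and Cdk6 inhibitor p15, read 8.4 and 12.4 on normal diet, 10.9, 9.1 and 8.3 in non-tumour tissue and 420.6, 459.1 and 787.0 in tumours. It rose by 3.57 ± 0.19 over non-tumour tissue (adjusted p 0.000271). Cdkn1a, which encodes p21, read 6.5 and 3.0 on normal diet, 27.8, 39.0 and 46.4 in non-tumour tissue and 92.6, 70.7 and 198.0 in tumours, a rise of 0.98 ± 0.26 between the tissues (adjusted p 0.0377) and of 1.72 ± 0.30 in tumours over normal diet liver (adjusted p 0.00723). Both inhibitor genes were thus high on the tumour arrays, on which Ccnd1, Cdk4 and Mki67 were high too.

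Cdkn2a was listed at 11.2, 4.5 and 11.3 in the tumours, on 0 of 3 non-tumour arrays and at 1.8 on 1 normal diet array. It was at least 1.16-fold higher in tumour than in non-tumour tissue (adjusted p 0.0370). Cdkn2a passed the filter on dim genes only through the tumours, where it was high. Its p value and its place among the 3 that rose therefore do not support a rise. Cdkn2d, the inhibitor p19, fell by 0.15 ± 0.03 between the tissues (adjusted p 0.00815). Cdkn1b, Cdkn1c and Cdkn2c gave 0.02 ± 0.07, 0.03 ± 0.05 and 0.12 ± 0.13 and passed no test in any comparison. The part of the inhibitors in the levels of the members was not tested.

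Markers of other cells that a piece of liver can hold were read beside these results. For the called counts here and in the next paragraph, 12.0% of all genes were higher and 13.4% lower between the tissues. Between tumours and normal diet liver these shares were 12.9% and 15.0%, and between the diets 1.81% and 2.03%. At an unadjusted p below 0.05 by the same limma test, 9.21% of all genes were higher and 10.8% lower between the diets. For the comparisons with tumours the shares at that threshold are not given, so unadjusted counts there cannot be set against a background. The summed intensity of 14 markers of T and NK cells, which can divide in tissue, was 74.3 to 83.8 on normal diet, 80.8 to 91.8 in non-tumour tissue and 69.6 to 114.9 in tumours, and 0 of 14 were called in any comparison, with 1 higher at an unadjusted p below 0.05 between tumour and non-tumour tissue, 1 lower between the diets and 0 between tumours and normal diet. Klrb1c was not listed in non-tumour tissue. The 15 macrophage markers summed to 1501 to 1841, 1916 to 2382 and 1125 to 1846, with 1 higher and 2 lower in tumours than in non-tumour tissue. The lower ones were Clec4f and Vsig4 of Kupffer cells. The sum of 13 stellate cell and fibroblast markers was 1122 to 1275, 1738 to 2502 and 1732 to 2706, with 2 higher (Col3a1 and Vim) and 1 lower (Lrat) of 13. Against normal diet liver 5 stellate markers were higher in tumours (Col1a2, Col3a1, Rgs5, Timp1 and Vim) and Lrat was lower, and Col3a1 was also higher between the diets. Of the macrophage markers 4 were higher (C1qb, Cx3cr1, Ccr2 and Itgam) and 4 lower (Clec4f, Vsig4, Timd4 and Cd163) in tumours than on normal diet.

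For 12 endothelial markers the sums were 890.2 to 1099, 805.7 to 910.3 and 622.7 to 906.5, with 2 of 11 tested higher in tumours than in non-tumour tissue (Pecam1 and Cd34), both of them and Tie1 higher than on normal diet, and Cdh5 was not listed on normal diet. For 7 B and plasma cell markers they were 336.4 to 410.5, 307.8 to 364.4 and 510.1 to 790.5, where Blnk rose and Pax5 was listed on 1 normal diet array alone. For 10 neutrophil markers they were 281.7 to 316.5, 381.6 to 431.1 and 276.8 to 418.8, with 0 of 9 called in tumours against non-tumour tissue (2 lower at an unadjusted p below 0.05) and Csf3r higher in tumours than on normal diet. Mpo was not listed on normal diet or in tumours. For 7 cholangiocyte markers they were 248.2 to 250.2, 240.1 to 276.8 and 222.0 to 257.7 (0 higher and 1 lower), and for 7 red blood cell markers 6897 to 8394, 11890 to 32740 and 7837 to 13960 (0 higher and 2 lower of 6). The part of these cells in the levels of the cell cycle genes was not tested.

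Of genes outside the members, those whose log2 signal followed Mki67 most closely over the 8 arrays were Shisa5, Armcx2, Gltp, Mtmr11 and Heg1, with Pearson r from 0.983 to 0.994 among 15338 genes listed on every array. Among members Ccna2 had an r of 0.998 with Mki67, Top2a 0.966, Ccnd1 0.960 and Mcm2 0.852, while Pcna had -0.392 and Tk1 -0.750. These coefficients describe 8 arrays of 5 animals in 3 groups, and a gene that differs between the groups in the same order as Mki67 scores high.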

How the data were processed

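Total RNA of 8 liver samples was amplified, coupled to Cy5 and hybridised to single-colour arrays, per the labels' protocols. The scanner files hold spot intensities, per the file headers, and the deposited normalized intensities of the authors equal, as recomputed here, each spot's median less the average blank spot, scaled to a median of 25 per array. Other steps of the authors are not given in the sources used here.

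For the tests, spot medians were corrected by normexp with blank spots as negative controls (offset 50), quantile normalized and converted to log2, in limma 3.58.1 (R 4.3.3). Of 23473 probes 20690 had 1 gene symbol and 2783 none, which gave 19321 genes. A gene was tested if listed on every array of at least 1 group (16800 genes). Group means were fitted with lmFit and eBayes (5 residual and 1.49 prior degrees of freedom), tests were 2-sided, and p values were adjusted by Benjamini-Hochberg over all genes. The fit was tested on simulated data with independent noise on each array. Those data held no pairing of tissues and no link of spread to signal level, so they cannot show how the fit handles these. The labels name mice, so p values measure the spread between animals within the groups, and the number of animals limits the precision. The main fit took the arrays as independent, although both tissues of a high fat liver come from the same animal.

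Mouse number pairs the tumour and non-tumour arrays: the labels give them as tissues of the same liver, and deviations from the group means correlated at 0.443, 0.148 and 0.167 for mice 117, 186 and 1, against -0.275 to 0.028 for different mice. The main fit left it out and an alternative had it as a block.

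Members, roles and lists were chosen with earlier results of these data known. The text names each member called in at least 1 comparison, 12 members whether called or not, the extremes of a role, up to 4 called genes per other list and comparison, all 7 Cdk inhibitors, and the 5 genes closest to Mki67. Other uncalled members named with values, such as Mcm4, were chosen after their values were seen. Alternatives were other background corrections, offset, scaling, filters, probe rule, samples in the fit and left-out arrays.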

Additional observations from a re-analysis of the deposited data

How the results depend on the processing

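The numbers of members called were 10 (tumour against non-tumour tissue), 1 (non-tumour tissue against normal diet) and 22 (tumour against normal diet). With normexp on the scanner's local background they were 0, 0 and 0, while that setting called 136, 3 and 224 of all genes. On each array the local background followed the spot's own signal, with rank correlations of 0.902 to 0.960. The cause of the lower counts was not tested. With an offset of 10 they were 17, 8 and 24. Over all 16800 genes that offset called 2286 higher and 2496 lower, 481 and 396, and 2489 and 2734. The main fit called 2008 and 2259, 304 and 341, and 2162 and 2513. For non-tumour tissue against normal diet, 6 members were called with blank subtraction, 6 with median scaling and 3 with the authors' values. Among genes with a value on all 8 arrays 2 were called, and 3 when fitted on the compared groups only. Over all genes, blank subtraction called 451 higher and 297 lower there, median scaling 1084 and 319, and the authors' values 265 and 381. Genes with a value on all 8 arrays gave 316 and 340, and the compared groups only 434 and 382. With each array left out in turn the counts ran from 8 to 17, 0 to 4 and 8 to 24, the last range low without either normal diet array. With the replicate block 8 members were called, 7 of them also called without it, beside 1642 higher and 1843 lower over all genes.

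Of 846 values of named members under alternatives, 702 kept direction and side of the threshold, 113 no longer passed, 19 newly passed and 12 changed sign. With local background E2f1 gave 0.034, -0.026 and 0.008 in the 3 comparisons, Birc5 -0.04 between the tissues, Ccne1 -0.037 between the diets and Pcna 0.345 in tumour against normal diet. Bub1 gave -0.007 in tumour against normal diet with median scaling, and Pcna -0.004 between the diets with the authors' values. Ccne1 between the diets ran from -0.047 without normal diet 117 (-0.016 without non-tumour 117) to 0.148 without normal diet 120, and E2f1 in tumour against normal diet was 0.004 without normal diet 117 and 0.029 without tumour 117.

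Among all called genes, 47.1%, 47.1% and 46.2% were higher, against 37.3%, 77.3% and 39.0% with median scaling and 40.6%, 41.0% and 32.1% with the authors' values, which move the median of all genes to -0.072, -0.123 and -0.197. The authors' values, free of the offset, gave fold changes over 1.5 times larger for 8 of 10, 1 of 1 and 19 of 22 called members. Dim members such as Bub1 and Plk1 lie near the blank level, which limits what their fold changes can show.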
